A study of Mus musculus with 9 samples.

Results

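The genes described here are those of the secretory pathway: the machinery that feeds new proteins into the endoplasmic reticulum (ER), folds and glycosylates them there, senses folding stress, and packs the products into vesicles bound for the Golgi. Members were taken by symbol: the Sec11, Sec16, Sec22, Sec23, Sec24, Sec31, Sec61, Sec62 and Sec63 families, the Ssr, Spcs and Srp genes, the protein disulfide isomerases Pdia3 to Pdia6 and P4hb, and a fixed set of chaperones, oligosaccharyltransferase subunits and stress genes. The rule gave 60 mouse genes, of which 58 were measured among 19505 genes with a symbol. Manf and Pdia4 were not analysed here. Each gene is read by 1 transcript cluster, a group of array probes summarised to 1 value; Ddit3 has more than 1 cluster, and the one with the highest mean was used.

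The study used Clariom S arrays to profile the submandibular gland, a salivary gland, of 12-week female mice of strain C57BL6/J after part of it had been removed. The 9 arrays form 3 groups of 3 biological replicates. They are glands at day 14 after partial resection, glands at day 3 after partial resection, and glands at day 3 after mock surgery. All groups are thus operated animals, and a day 14 mock group was not analysed here, so at day 14 resection and time since surgery cannot be told apart.

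Salivary glands export large amounts of protein, and their secretory cells are rich in rough ER. A growing secretory protein is recognised by the signal recognition particle, threaded through the Sec61 channel, trimmed by signal peptidase and glycosylated by the oligosaccharyltransferase. Chaperones and disulfide isomerases then fold it, and COPII vesicles carry it to the Golgi. When unfolded protein accumulates, the sensors Atf6, Ern1 (IRE1) and Eif2ak3 (PERK) start the unfolded protein response, which raises the chaperones, in part through a promoter sequence called the ER stress response element.

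Most of these genes differed little between the groups. On day 3 after resection, 3 of the 58 members passed the threshold against mock, which is a share of 5.17% beside 6.27% of all 22206 transcript clusters tested (limma, Benjamini-Hochberg adjusted p under 0.05). By direction, 2 were lower (3.45%, beside 1.36% of all clusters) and 1 was higher (1.72%, beside 4.92%). Most members are bright, and in the brightest 10% of clusters 11.4% passed on day 3 against mock, 3.96% lower and 7.47% higher, so the share of lower calls among members did not exceed that of bright clusters. Srp72, a subunit of the signal recognition particle, and Herpud1, an ER membrane protein that serves degradation of misfolded proteins, were lower, and Sec16b, a scaffold of ER exit sites, was higher. None of the 58 passed on day 14 against mock, where 0.153% of all clusters did, and none passed between day 14 and day 3 after resection, where 6.28% did. At an unadjusted p under 0.05, limma marked 13 members on day 3 against mock (22.4%, beside 18.6% of all clusters), 6 on day 14 against mock (10.3%, beside 8.18%) and 10 between the resected groups (17.2%, beside 18.9%). These comparisons share arrays: the arrays of each group serve in 2 of the 3, so both comparisons with mock use the same 3 mock arrays.

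The members leaned below mock. On day 3 after resection 41 of the 58 differences were below 0 (70.7%, beside 56.9% of all clusters), with a median of -0.19 on the log2 scale beside -0.06 over all clusters. The resected and mock arrays did not overlap for 16 members that were lower (27.6%, beside 11.8% of all clusters) and for 2 that were higher (3.45%, beside 11.2%), which were Rpn2 and Sec16b. On day 14 after resection 37 differences from mock were below 0 (63.8%, beside 50.2%), with a median of -0.22 beside 0.00 over all clusters. The brightest 10% of clusters also leaned below mock, with 59.8% below 0 and a median of -0.07 on day 14, and 54.8% and -0.06 on day 3. On day 14 the resected and mock arrays did not overlap for 9 of the 58 members that were lower (15.5%, beside 6.99% of all clusters). The same held for Rpn2, which was higher (1.72%, beside 6.03%). Between day 14 and day 3 after resection the median difference was 0.11 beside 0.06 over all clusters, with 10 members higher without overlap (17.2%, beside 12.9%) and 9 lower (15.5%, beside 12.5%). Shares without overlap were not computed for the brightest clusters. The plot of cumulative shares shows the shift of the members from all clusters in both mock comparisons and its near absence between the resected groups.

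**Figure D1:**
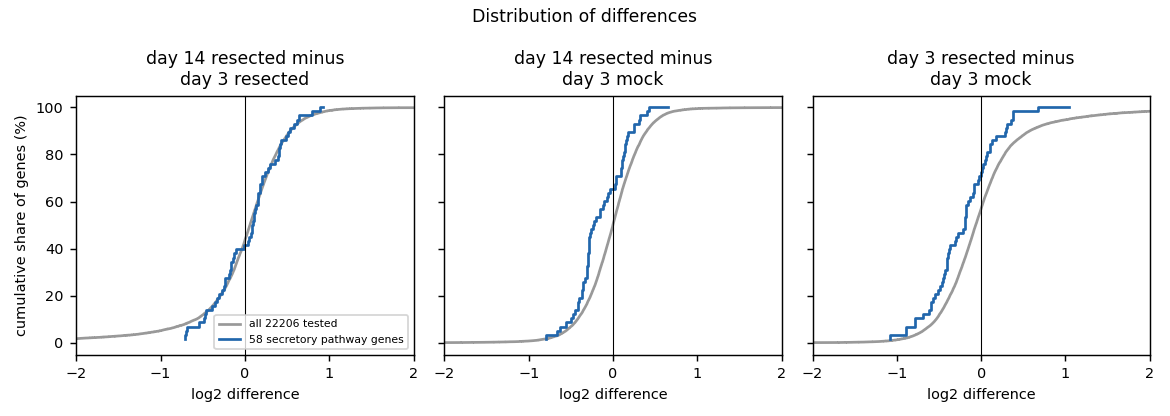
Cumulative share of genes (%, vertical axis) by log2 difference (horizontal axis) for the 58 secretory pathway genes (blue) and all 22206 tested transcript clusters (grey), in the 3 comparisons. Against mock the blue lines lie left of the grey ones over most of their length, with medians of -0.22 on day 14 and -0.19 on day 3, and between the resected groups the lines nearly coincide, with medians of 0.11 and 0.06.

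The size of the lean depended on single mock arrays. In day 14 resected glands the 58 genes deviated from the mock mean by a median of -0.23, -0.14 and -0.20 per array, in day 3 resected glands by -0.25, -0.26 and -0.19, and in mock glands by -0.18, -0.05 and 0.22. Mock replicate 3 was thus the high array, and mock replicate 1 lay near the resected arrays. Without mock replicate 3 the median difference was -0.07 on day 3 and -0.09 on day 14. The 1 member that then passed the threshold on day 3 was Sec16b, which was higher than mock. Without mock replicate 1 the lean was larger, with medians of -0.29 on day 3 and -0.30 on day 14. The median SD over the 58 genes was 0.21 in day 14 resected glands, 0.19 in day 3 resected glands and 0.32 in mock glands. The mock arrays were also the more variable over all clusters (0.26, 0.25 and 0.29 in that order of groups) and in the brightest 10% (0.20, 0.21 and 0.28).

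Size bounds can be given for most members. The 95% interval of the difference lay within -1 to 1 on the log2 scale, that is within 2-fold on the deposited scale, for 46 of the 58 on day 14 against mock, for 40 on day 3 against mock and for 42 between the resected groups. Differences ranged from -0.79 to 0.65, from -1.08 to 1.04 and from -0.71 to 0.93 in the same order. A difference below 0.5 in size was seen for 52, 44 and 46 members. With 3 arrays per group a smaller difference that misses the threshold is not shown to be absent.

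**Figure D2:**
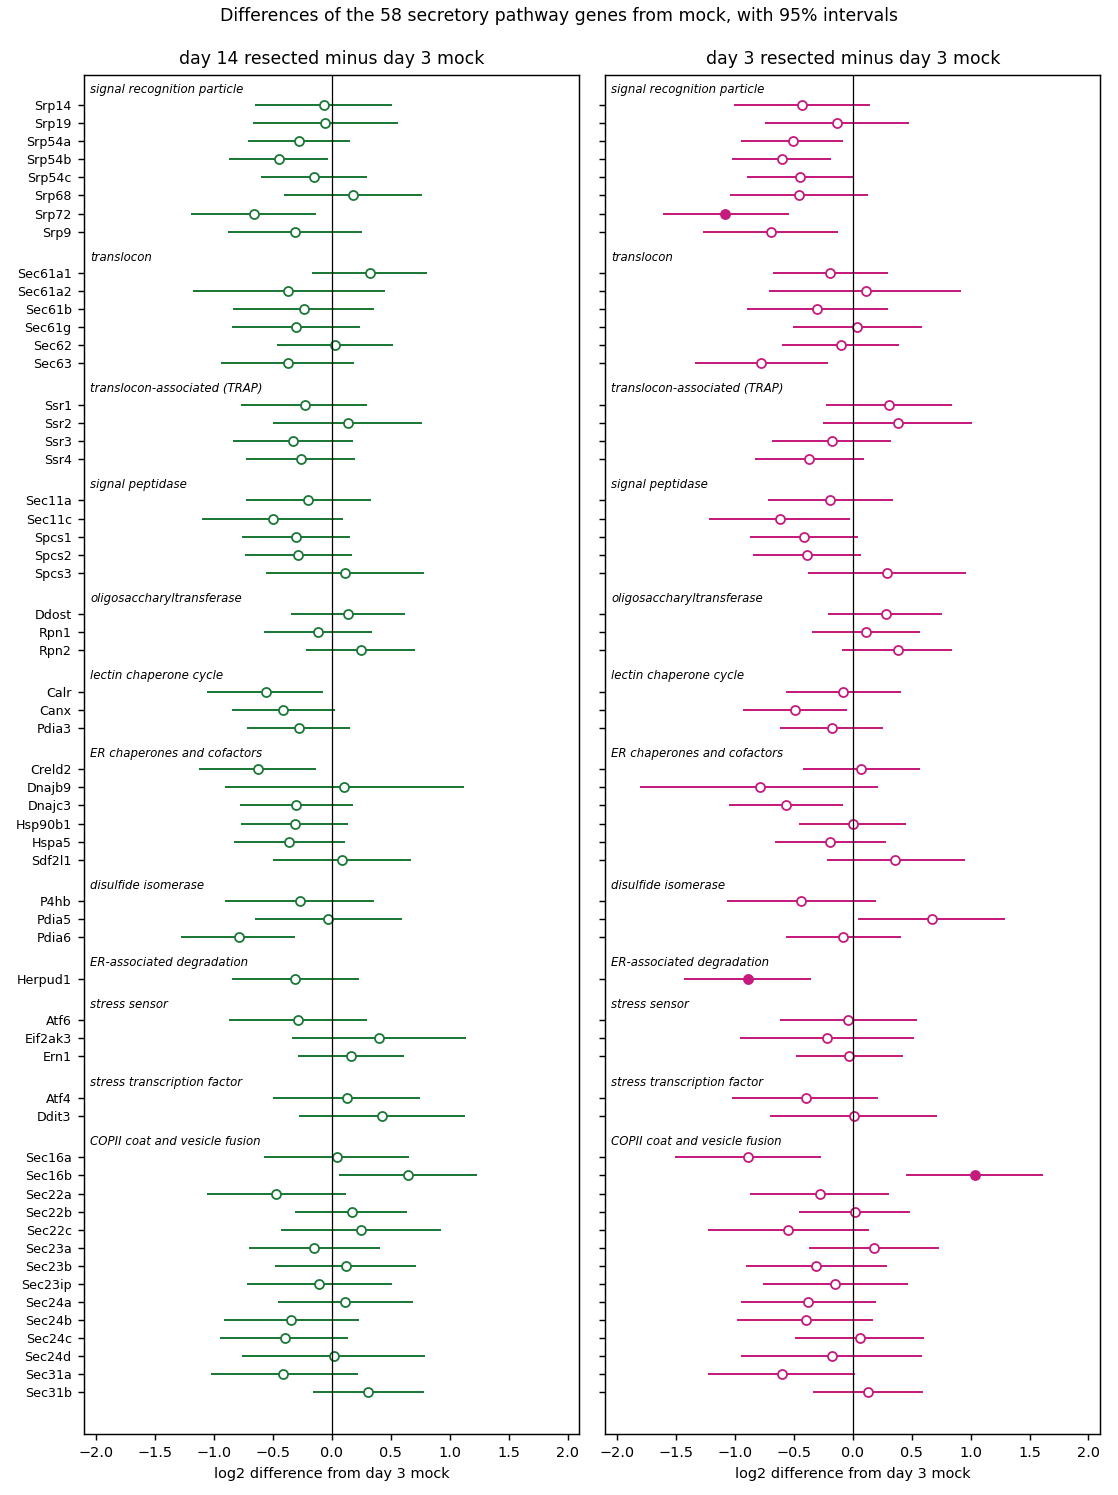
Log2 difference from day 3 mock (horizontal axis) of each of the 58 genes, grouped by role, for day 14 resected glands (left) and day 3 resected glands (right); bars are 95% intervals and filled points passed the threshold. The 3 filled points, all on day 3, are Srp72 at -1.08, Herpud1 at -0.89 and Sec16b at 1.04.

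Markers of several cell types differed on day 3. Against mock, 11 of 11 measured macrophage markers, 9 of 11 fibroblast and matrix markers, 9 of 9 cell division genes and 4 of 9 neutrophil markers were higher, and 5 of 7 granular tubule markers, 3 of 11 acinar markers and 1 of 11 plasma and B cell markers were lower. Of 9 duct markers, 1 was higher and 1 lower. Among the other lists, 1 of 8 myoepithelial markers was lower, 2 of 8 T and NK cell and 1 of 5 lymph node markers were higher, and 0 of 7 endothelial, 0 of 6 adipocyte and 0 of 7 skeletal muscle markers passed. On day 14 no marker passed against mock, but all 9 cell division genes lay below mock, with a median difference of -0.96. Per array, the mean log2 level of the acinar list was 16.41 to 16.96 on day 14, 15.90 to 16.34 on day 3 after resection and 16.47 to 16.66 in mock glands, so acinar markers were abundant in all 3 groups. The granular tubule list lay at 14.48 to 15.64, 13.18 to 14.07 and 14.97 to 15.74 in that order of groups, and the macrophage list at 8.62 to 8.83, 11.14 to 11.65 and 7.83 to 8.54. The cell division list lay at 5.42 to 5.60, 9.43 to 10.61 and 5.57 to 7.25 in the same order of groups. All day 3 and day 14 results below stand beside these values, whose part in them was not tested. In bulk tissue fewer cells of a type and less RNA per cell cannot be told apart.

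Targeting to the ER begins with the signal recognition particle, an RNA and protein complex that binds the signal peptide as it leaves the ribosome. All 8 measured protein genes of the particle lay below mock on day 3, with a median difference of -0.49 and 1 past the threshold. For 5 of the 8 the day 3 resected arrays lay below mock without overlap, as did 11.8% of all clusters, and 3 of these 5 are the near-identical copies Srp54a, Srp54b and Srp54c. Against day 3 resected glands all 8 were above 0 on day 14, with a median of 0.33 and none past the threshold. Against mock on day 14 the median was -0.21, with 7 of 8 below 0. Per array, the median deviation of the 8 genes from the mock mean was -0.11, -0.40 and -0.27 on day 14, -0.46, -0.61 and -0.51 on day 3 after resection, and -0.03, -0.07 and -0.05 in mock glands. In this median mock replicate 3 did not stand above the other mock arrays. By gene, it was the highest mock array for Srp72, Srp68 and Srp19 and not for the others. The direction on day 3 was the same for 8 of 8 after quantile normalisation (median -0.52) and after centring each array on its median (-0.56), and for 7 of 8 without mock replicate 3 (-0.53).

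Srp72, which binds the RNA of the particle together with Srp68, had the largest fall of any member. Its log2 levels were 14.33, 14.60 and 14.80 in day 14 resected glands, 14.10, 14.35 and 14.04 in day 3 resected glands, and 15.15, 14.90 and 15.68 in mock glands. Every resected array of either day was below every mock array. On day 3 Srp72 was lower than mock by -1.08 ± 0.24 (log2 difference ± SE, limma adjusted p = 0.0173). The call was lost without day 3 resected replicate 1 (adjusted p = 0.0522), day 3 resected replicate 3 (0.0768) or mock replicate 3 (-0.86, 0.0677). Leaving out 1 day 3 resected or mock array gave differences of -1.25 to -0.86. Leaving out a day 14 array cannot change this difference. On day 14 the difference from mock was -0.66 (limma adjusted p = 0.509).

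Srp54 carries the GTPase and the signal peptide pocket of the particle, and the mouse has several near-identical copies, so probes may read more than 1 of them and their values are not independent. Srp54b had log2 levels of 16.65, 16.61 and 16.67 on day 14, 16.59, 16.49 and 16.38 on day 3 after resection, and 17.23, 17.07 and 16.98 in mock glands. Both resected groups were below mock without overlap, at -0.45 on day 14 (limma adjusted p = 0.572) and -0.60 on day 3 (0.0923). Srp54a differed by -0.51 and Srp54c by -0.45 from mock on day 3, also without overlap. Srp9, which with Srp14 pauses translation, was at -0.69 on day 3 (limma adjusted p = 0.161), Srp14 at -0.43, Srp68 at -0.46 and Srp19, which helps assemble the particle, at -0.13. These did not pass the threshold.

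The translocon is the channel that the particle delivers to. Sec61a1, Sec61b and Sec61g form the pore, and Sec62 and Sec63 help proteins that enter after translation. On day 3 the 6 genes had a median difference of -0.15 from mock, with 4 below 0, and on day 14 a median of -0.27, also with 4 below 0. Sec63, the membrane partner that recruits the chaperone Hspa5 to the channel, stood lowest on day 3. It had log2 levels of 12.43, 12.51 and 11.99 in day 14 resected glands, 11.87, 11.52 and 12.32 in day 3 resected glands, and 12.47, 12.62 and 12.97 in mock glands. Day 3 resected and mock arrays did not overlap, with a difference of -0.78 (limma adjusted p = 0.106). Sec61b had 9.12, 9.22 and 8.95 on day 14, 9.14, 8.46 and 9.49 on day 3 after resection, and 9.01, 9.37 and 9.63 in mock glands, so all groups overlapped. The pore subunit Sec61a1 differed from mock by 0.32 on day 14 and -0.19 on day 3.

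The translocon-associated protein complex, encoded by Ssr1 to Ssr4, assists entry of some signal peptides. Its median difference from mock was -0.25 on day 14 and 0.06 on day 3, with ranges of -0.33 to 0.14 and -0.37 to 0.38 and no gene past the threshold. Signal peptidase, which removes the signal peptide, had 4 of 5 subunits below mock on both days, with medians of -0.29 on day 14 and -0.39 on day 3. Sec11c, one of its catalytic subunits, had 16.44, 16.66 and 16.17 on day 14, 16.09, 16.43 and 16.39 on day 3 after resection, and 16.67, 17.55 and 16.55 in mock glands. Mock replicate 2 was far above the rest. Day 3 resected and mock arrays did not overlap, and the difference on day 3 was -0.62 (limma adjusted p = 0.247).

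The oligosaccharyltransferase, which transfers glycans to asparagine, stood on the other side of 0 on day 3. Its subunits Ddost, Rpn1 and Rpn2 were all above mock there, at 0.28, 0.11 and 0.38, and at 0.14, -0.12 and 0.25 on day 14. Rpn2 had log2 levels of 12.56, 12.55 and 12.76 on day 14, 12.75, 12.95 and 12.57 on day 3 after resection, and 12.48, 12.12 and 12.54 in mock glands. Both resected groups were above mock without overlap, though the nearest arrays almost touched, and neither difference passed (limma adjusted p = 0.804 on day 14 and 0.37 on day 3).

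**Figure D3:**
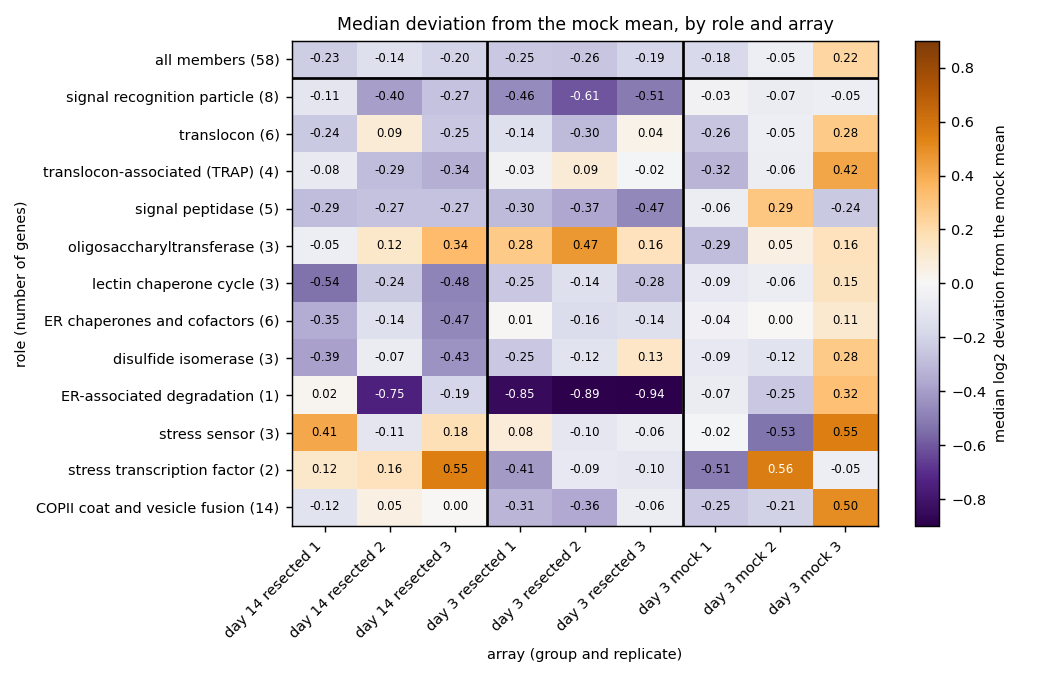
Median log2 deviation from the mock mean (colour and printed value) of the genes of each role (rows, with the number of genes) on each of the 9 arrays (columns, day 14 resected, day 3 resected, day 3 mock). The top line, over all 58 genes, runs from -0.26 on a day 3 resected array to 0.22 on mock replicate 3.

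Folding in the ER rests on the chaperones Hspa5 (BiP) and Hsp90b1 (GRP94), their cofactors, the lectin cycle of Calr, Canx and Pdia3, and the disulfide isomerases. On day 3 none of these passed against mock, and medians were -0.10 for the 6 chaperones and cofactors, -0.18 for the 3 lectin cycle genes and -0.08 for the 3 other isomerases. On day 14 the medians were -0.31, -0.41 and -0.27, again with none past the threshold. Hspa5, the most studied target of the unfolded protein response, had log2 levels of 18.08, 18.04 and 17.85 on day 14, 18.24, 18.15 and 18.11 on day 3 after resection, and 18.47, 18.01 and 18.57 in mock glands. The lowest mock array lay among the resected ones, and the differences were -0.36 on day 14 (limma adjusted p = 0.702) and -0.19 on day 3 (0.709). Hsp90b1 had 17.59, 17.84 and 17.36 on day 14, 17.85, 17.80 and 18.06 on day 3 after resection, and 17.88, 17.98 and 17.86 in mock glands. Day 14 was below mock without overlap at -0.31 (limma adjusted p = 0.734), and day 3 differed by 0.00.

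Pdia6, an isomerase that also binds the sensors of folding stress, had the largest difference from mock on day 14. Its log2 levels were 12.85, 13.46 and 13.19 on day 14, 13.71, 13.83 and 14.09 on day 3 after resection, and 14.06, 13.84 and 13.98 in mock glands. All day 14 arrays were below all others, with a difference of -0.79 ± 0.22 from mock (limma adjusted p = 0.287) and -0.71 from day 3 (0.0818). Creld2, an ER-resident isomerase-like factor induced by folding stress, had 8.21, 8.75 and 8.74 on day 14, 9.44, 9.22 and 9.15 on day 3 after resection, and 9.04, 9.12 and 9.43 in mock glands. Here too the day 14 arrays were lowest without overlap, at -0.63 against mock (limma adjusted p = 0.493) and -0.70 against day 3 (0.0945). Calr, the soluble lectin chaperone, had 16.75, 17.16 and 17.04 on day 14, 17.66, 17.47 and 17.27 on day 3 after resection, and 17.53, 17.30 and 17.82 in mock glands. Its day 14 arrays were again the lowest, with a difference of -0.56 from mock (limma adjusted p = 0.548). P4hb, the founding disulfide isomerase, differed from mock by -0.27 on day 14 and -0.44 on day 3. Pdia5 differed by -0.03 and 0.67 (limma adjusted p = 0.991 and 0.226), at levels below the 95th percentile of the negative control rows on all arrays.

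Canx, the membrane-bound lectin partner of Calr, was below mock on both days without overlap. Levels were 14.40, 14.72 and 14.46 on day 14, 14.35, 14.42 and 14.55 on day 3 after resection, and 14.85, 14.88 and 15.08 in mock glands, and the differences were -0.41 (limma adjusted p = 0.625) and -0.49 (0.195). Dnajc3, a cochaperone of Hspa5, had 15.31, 15.65 and 15.21 on day 14, 15.02, 15.06 and 15.28 on day 3 after resection, and 15.67, 15.45 and 15.94 in mock glands. Day 3 was below mock without overlap at -0.57 (limma adjusted p = 0.175), and day 14 overlapped mock at -0.30. Dnajb9, another cochaperone of Hspa5, had the highest SD of any member among mock arrays, with levels of 12.57, 12.47 and 13.31 on day 14, 12.75, 11.22 and 11.70 on day 3 after resection, and 11.74, 13.63 and 12.69 in mock glands. That SD, 0.95, exceeds its difference of -0.79 on day 3 against mock. Sdf2l1, a partner of that cochaperone family, had 9.75, 10.49 and 10.44 on day 14, 10.81, 10.39 and 10.29 on day 3 after resection, and 10.08, 10.48 and 9.85 in mock glands, and all groups overlapped.

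**Figure D4:**
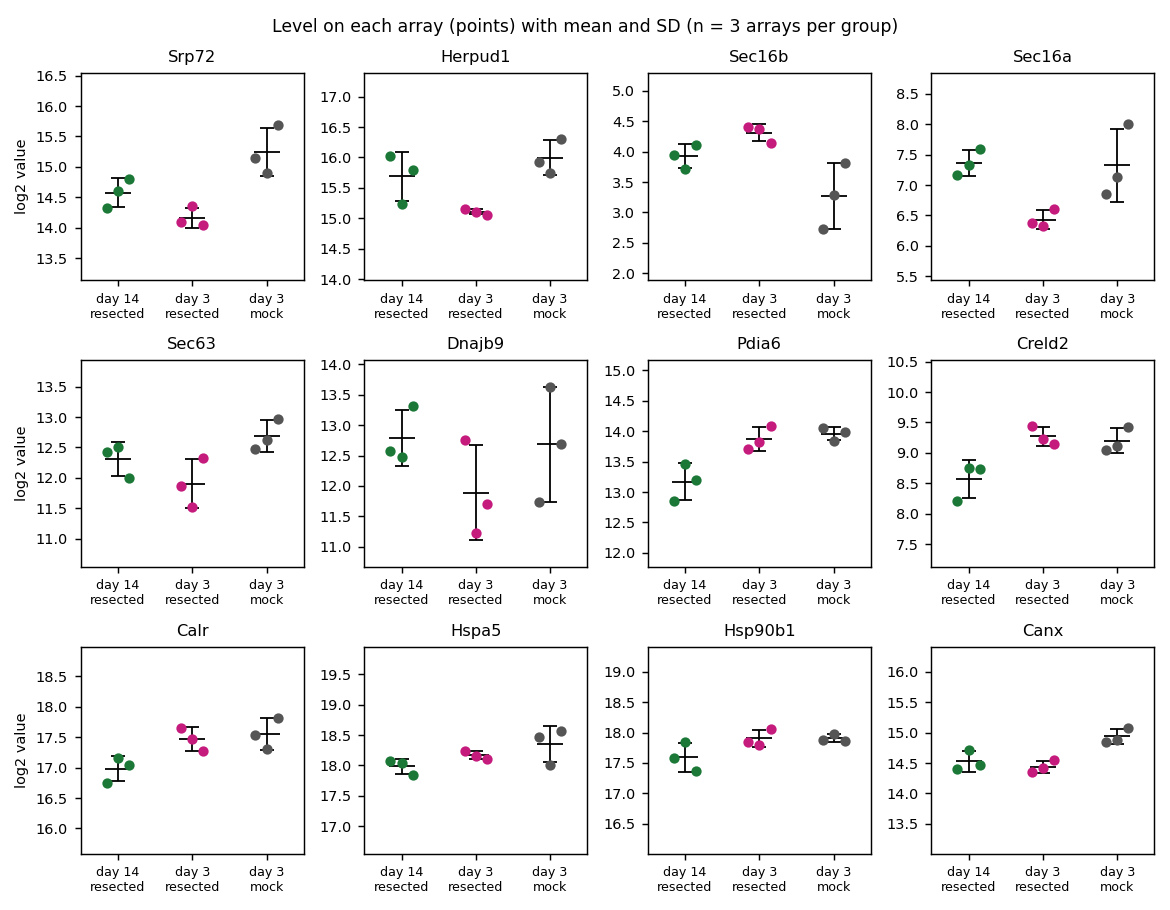
Log2 level (vertical axis) on each array of 12 members, with the mean (line) and SD (bar) of the 3 arrays per group, for day 14 resected, day 3 resected and day 3 mock glands; every panel spans the same number of log2 units. In Pdia6 and Creld2 the 3 day 14 arrays lie below the other 6, and in Srp72 all resected arrays lie below the 3 mock arrays.

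The ER stress response element, through which Atf6 and Xbp1 act, was searched for in the promoters of the members. Windows of 300 bases (250 before the start of the gene and 50 after it, RefSeq GRCm38.p6) were found for 51 of the 58 genes. The element was searched on both strands as CCAAT and CCACG with any 9 bases between them, and was present for 7 of these (13.7%) and for 37 of 27025 genes with a window (0.137%). The 7 were Hspa5, Hsp90b1, Calr, Canx, Pdia6, Dnajc3 and Creld2. Several members were put in the rule as known stress targets, so these shares are not independent of that choice. A shorter form, ATTGG and CCACG with any 1 base between them, was found only for Herpud1 (1.96% of members, 0.0444% of genes), which has no match to the longer one. The sequences below come from RefSeq GRCm38.p6, read 5′ to 3′ on the strand of the gene. All but that of Herpud1 are shown because they mark the genes whose day 14 values are grouped next. Herpud1 is described after that group. Capitals mark the fixed letters of a match, and a match of the longer element on the strand opposite to the gene reads CGTGG and ATTGG. Hspa5 and Herpud1 are given from 250 bases before the start of the gene to the start. The Hsp90b1 stretch holds 2 matches, 1 in each orientation, and the others run 15 bases to either side of their match.
Hspa5 (chr2:34771840-34772089, plus strand): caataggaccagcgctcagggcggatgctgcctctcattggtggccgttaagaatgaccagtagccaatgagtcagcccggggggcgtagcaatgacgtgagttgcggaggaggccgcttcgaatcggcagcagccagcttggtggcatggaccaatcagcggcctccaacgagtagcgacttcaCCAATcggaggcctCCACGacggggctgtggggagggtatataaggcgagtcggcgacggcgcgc
Hsp90b1 (chr10:86705518-86705671, minus strand): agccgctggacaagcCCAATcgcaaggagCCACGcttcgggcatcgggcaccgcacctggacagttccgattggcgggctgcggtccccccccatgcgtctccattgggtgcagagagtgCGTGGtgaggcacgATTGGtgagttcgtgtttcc
Calr (chr8:84847060-84847108, minus strand): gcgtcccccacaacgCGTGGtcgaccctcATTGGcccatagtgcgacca
Canx (chr11:50325785-50325833, minus strand): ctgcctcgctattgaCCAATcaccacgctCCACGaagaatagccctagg
Pdia6 (chr12:17266476-17266524, plus strand): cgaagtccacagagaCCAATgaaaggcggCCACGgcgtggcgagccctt
Dnajc3 (chr14:118937812-118937860, plus strand): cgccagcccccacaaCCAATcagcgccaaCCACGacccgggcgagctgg
Creld2 (chr15:88819505-88819553, plus strand): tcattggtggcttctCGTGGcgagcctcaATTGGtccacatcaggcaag
Herpud1 (chr8:94386179-94386428, plus strand): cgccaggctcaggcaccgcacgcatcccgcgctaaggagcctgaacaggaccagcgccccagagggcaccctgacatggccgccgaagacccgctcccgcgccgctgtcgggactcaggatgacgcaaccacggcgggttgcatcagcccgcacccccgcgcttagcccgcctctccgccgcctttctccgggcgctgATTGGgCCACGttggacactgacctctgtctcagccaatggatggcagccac

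The 7 genes with the longer element all lay below mock on day 14, with a median of -0.41 and a range of -0.79 to -0.30. None passed the threshold, and 3 had an unadjusted limma p under 0.05 (Pdia6, Creld2 and Calr), beside 8.18% of all clusters. On day 3 the same 7 had a median of -0.08 from mock with 6 below 0, or 7 after quantile normalisation or median centring, and between day 14 and day 3 after resection the median was -0.31 with 5 below 0. The 44 members without the element in the window had a day 14 median of -0.15 from mock, with 27 below 0. The 21 measured genes outside the member list that carry the element had a day 14 median of -0.16, with 14 below 0 and none past the threshold. Per array, the median deviation of the 7 from the mock mean was -0.54, -0.31 and -0.50 on day 14, -0.11, -0.12 and -0.24 on day 3 after resection, and -0.02, -0.12 and 0.22 in mock glands. The day 14 arrays were the lowest in that measure. Leaving out any 1 day 14 resected or mock array kept all 7 genes below mock on day 14, with medians of -0.53 to -0.34. Leaving out a day 3 resected array cannot change this difference. This grouping was made after the values were seen and carries no test, and a match of letters is a description, not a shown binding site.

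**Figure D5:**
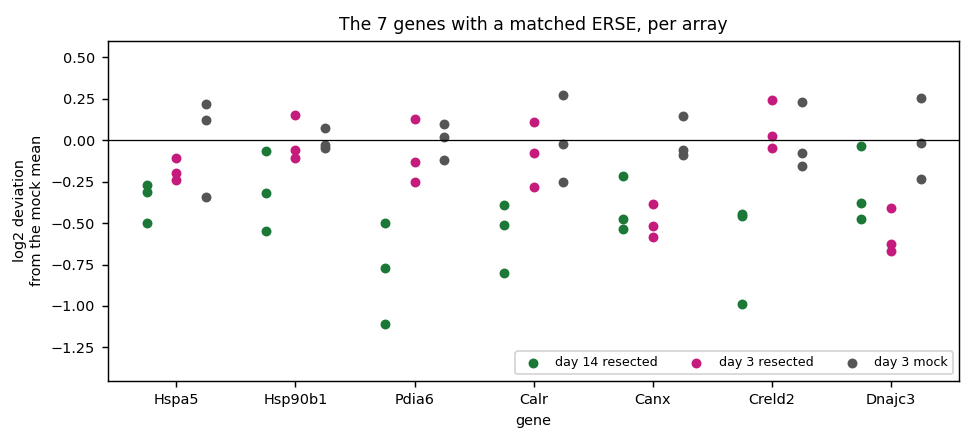
Log2 deviation from the mock mean (vertical axis) of the 7 genes with an ER stress response element in the promoter window, on each array of day 14 resected, day 3 resected and day 3 mock glands. The medians are -0.54, -0.31 and -0.50 on day 14, against -0.11, -0.12 and -0.24 on day 3 after resection and -0.02, -0.12 and 0.22 in mock glands.

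Herpud1, the carrier of the shorter element, helps assemble the complex that extracts misfolded proteins for degradation. Its log2 levels were 16.02, 15.24 and 15.80 in day 14 resected glands, 15.15, 15.11 and 15.06 in day 3 resected glands, and 15.92, 15.75 and 16.31 in mock glands. The day 3 resected arrays were tightly grouped and below every array of the other groups. Herpud1 was lower than mock on day 3 by -0.89 ± 0.24 (limma adjusted p = 0.049), which is at the edge of the threshold. The call was lost without day 14 resected replicate 3 (adjusted p = 0.0673), without any of the day 3 resected replicates 1, 2 and 3 (0.0952, 0.124 and 0.149) and without any of the mock replicates 1, 2 and 3 (0.0951, 0.0535 and 0.156), with differences of -1.01 to -0.73. On day 14 it differed by -0.31 from mock (limma adjusted p = 0.789).

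The sensors of folding stress showed no difference past the threshold. Ern1, the kinase and nuclease that splices Xbp1, had log2 levels of 9.32, 8.80 and 9.09 on day 14, 8.99, 8.82 and 8.85 on day 3 after resection, and 8.88, 8.92 and 8.94 in mock glands. Its differences from mock were 0.16 and -0.03, and its groups overlapped. Atf6, the sensor cut in the Golgi to release a transcription factor, had 11.27, 11.28 and 11.45 on day 14, 11.46, 11.47 and 11.83 on day 3 after resection, and 11.60, 11.09 and 12.17 in mock glands. The mock arrays alone spanned all other values. Eif2ak3, the kinase that slows translation, had 11.74, 11.61 and 11.52 on day 14, 11.31, 11.13 and 10.57 on day 3 after resection, and 11.25, 10.44 and 11.98 in mock glands, and its differences from mock were 0.40 and -0.22. Day 14 lay above day 3 without overlap, by 0.62 (limma adjusted p = 0.353).

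Atf4 and Ddit3 (CHOP) are transcription factors of the arm below Eif2ak3. Atf4 had 13.85, 13.52 and 14.59 on day 14, 13.31, 13.50 and 13.56 on day 3 after resection, and 13.47, 14.16 and 13.94 in mock glands, with differences from mock of 0.13 and -0.40. Ddit3 had 8.46, 8.87 and 8.58 on day 14, 7.95, 8.40 and 8.32 on day 3 after resection, and 7.58, 9.04 and 8.02 in mock glands, with differences of 0.43 and 0.01. Neither passed the threshold, and the mock arrays spread more widely than the resected ones for Ddit3. On 5 of the 9 arrays Ddit3 also lay below the 95th percentile of the negative control rows. The element TGATGNAAT, bound by these factors and searched on both strands, was found in none of the 51 member windows, against 1.08% of all genes.

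Vesicle export is the last step described. Sec16 scaffolds the exit sites, Sec23 and Sec24 form the inner COPII coat that selects cargo, Sec31 belongs to the outer coat, and the Sec22 genes include a fusion SNARE. Over the 14 genes the median difference from mock was 0.03 on day 14 and -0.23 on day 3. Sec16a, the main scaffold, had 7.17, 7.33 and 7.60 on day 14, 6.37, 6.32 and 6.61 on day 3 after resection, and 6.85, 7.13 and 8.0 in mock glands. The day 3 resected arrays were the lowest without overlap. The difference was -0.89 ± 0.28 against mock (limma adjusted p = 0.0907) and 0.93 between day 14 and day 3 after resection (0.0738), the largest of any member there. Both missed the threshold, and on all 9 arrays Sec16a lay below the 95th percentile of the negative control rows. The day 3 difference from mock passed without mock replicate 1 (-1.13, adjusted p = 0.044) and was -0.56 without mock replicate 3 (0.246). The difference between the resected groups passed without mock replicate 3 (0.93, 0.0214).

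Sec16b, the shorter scaffold paralogue, was the 1 member that passed the threshold as higher on day 3. Its log2 levels were 3.94, 3.72 and 4.11 in day 14 resected glands, 4.41, 4.37 and 4.15 in day 3 resected glands, and 2.73, 3.28 and 3.81 in mock glands. Day 3 resected and mock arrays did not overlap, with a difference of 1.04 ± 0.27 (limma adjusted p = 0.0349). The gene is dim: on all 9 arrays it lay below the median of the array's negative control rows (4.41 to 4.77), so the call rests on values in the range of the background. It was lost without day 14 resected replicate 1 (adjusted p = 0.0545), without any of the day 3 resected replicates 1, 2 and 3 (0.0962, 0.106 and 0.0747) and without mock replicates 1 (0.76, 0.124) and 2 (0.0836). On day 14 the difference from mock was 0.65 (limma adjusted p = 0.564). Sec31b also lay below that control median on all 9 arrays, and 8 members lay below the 95th percentile of the control rows on all of them.

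Sec22c had 4.67, 5.42 and 4.92 on day 14, 4.16, 4.33 and 4.13 on day 3 after resection, and 4.34, 4.40 and 5.51 in mock glands. Day 3 resected arrays were lowest without overlap, though the nearest day 3 resected and mock arrays almost touched, at 4.33 and 4.34. Day 14 exceeded day 3 by 0.80 (limma adjusted p = 0.176), at levels near the control rows. Sec24d, a cargo-selecting coat subunit, had 10.61, 10.38 and 9.90 on day 14, 9.83, 9.85 and 10.61 on day 3 after resection, and 9.53, 10.32 and 10.99 in mock glands, with all groups overlapping. The outer coat gene Sec31a stood at -0.60 from mock on day 3 without overlap (limma adjusted p = 0.282). The core of another stress element, TGACGTGG, was found on either strand in the windows of Sec16b, Sec23a and Sec24d (5.88% of members, 0.714% of genes).

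Further genes of the pathway came from 8 lists of partners, of which 134 of 142 genes were measured. On day 3 against mock 1 of these was higher and 4 were lower (3.73% in all, beside 6.27% of all clusters). On day 14 against mock limma called none of the 134, and 2 were higher and 4 lower on day 14 than on day 3 after resection (4.48% in all, beside 6.28%). The 18 translocon partners, 15 glycosylation genes, 16 degradation genes and 16 COPI coat and KDEL receptor genes had no call in any comparison. Medians of these 4 lists on day 3 were -0.14, 0.14, -0.31 and -0.21.

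Mia2, which helps load large cargo at exit sites, fell on day 3, with a mean log2 level of 16.12 ± 0.16 in day 3 resected glands and 17.25 ± 0.11 in mock glands (SD, n = 3 each). The difference was -1.13 ± 0.20 (limma adjusted p = 0.00378), and the call held in every setting run. Nupr1, a small stress-induced nuclear protein, averaged 17.72 ± 0.23 on day 14, 15.44 ± 0.11 on day 3 after resection and 17.04 ± 0.65 in mock glands (SD, n = 3 each). It was lower than mock on day 3 by -1.60 ± 0.29 (limma adjusted p = 0.00469) and higher on day 14 than on day 3 by 2.28 ± 0.29 (3.0e-04). Ero1b, an oxidase that recharges disulfide isomerases, was lower on day 3 by -0.88 ± 0.23 (limma adjusted p = 0.0386), and lost the call in the fit of only the groups compared (0.0836) and without any 1 of 7 arrays: day 14 resected replicates 1, 2 and 3 (0.055, 0.0544 and 0.0556), day 3 resected replicates 2 and 3 (0.0979 and 0.168) and mock replicates 1 and 2 (0.137 and 0.07).

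Bhlha15 (MIST1), a transcription factor of secretory cells that is also on the acinar marker list, averaged 14.32 ± 0.37 on day 14, 12.95 ± 0.51 on day 3 after resection and 14.13 ± 0.43 in mock glands (SD, n = 3 each). It was lower than mock on day 3 by -1.19 ± 0.31 (limma adjusted p = 0.0386) and higher on day 14 than on day 3 by 1.38 ± 0.31 (0.017). The first call was lost in the fit of only the groups compared (adjusted p = 0.0697) and without day 14 resected replicates 1 and 3 (0.0577 and 0.052), day 3 resected replicates 2 and 3 (0.146 and 0.161) or mock replicates 2 and 3 (0.0743 and 0.134). The second was lost without day 14 resected replicates 1 and 3 (0.0738 and 0.078) or day 3 resected replicates 2 and 3 (0.0804 and 0.0885). Xbp1, the factor spliced by Ern1, differed by 0.24 on day 14 and 0.35 on day 3 from mock (limma adjusted p = 0.889 and 0.629).

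The procollagen chaperones and hydroxylases stood on the other side of 0 on day 3. Their median was 0.82 on day 3 against mock, with 9 of 10 above 0, and -0.98 on day 14 against day 3 after resection. Serpinh1 (HSP47), the collagen-specific chaperone of the ER, averaged 8.95 ± 0.23 on day 14, 10.96 ± 0.86 on day 3 after resection and 8.45 ± 0.59 in mock glands (SD, n = 3 each). It was higher than mock on day 3 by 2.51 ± 0.39 (limma adjusted p = 0.00176) and lower on day 14 than on day 3 by -2.01 ± 0.39 (0.00696), and both calls held in every setting run. The collagen hydroxylases Plod2, P4ha1 and P4ha2 were lower on day 14 than on day 3 by -2.06, -1.85 and -1.24 (limma adjusted p = 0.0315, 0.0297 and 0.0171). Without day 3 resected replicate 3 their differences were -1.55, -1.21 and -0.95 (0.147, 0.0745 and 0.0793). The call of Plod2 was also lost after quantile normalisation (-1.93, 0.052). Further calls were lost without day 14 resected replicates 2 (0.122) and 3 (0.132) for Plod2, 1 (0.119) and 3 (0.0991) for P4ha1, and 1 (0.0555) and 2 (0.0698) for P4ha2, and without day 3 resected replicate 2 (0.0655) for P4ha2. On day 3 against mock these 3 stood at 1.81, 1.35 and 0.77 and did not pass. Beside these values, the fibroblast and matrix markers had a mean level per array of 9.17 to 9.79 on day 14, 11.04 to 12.75 on day 3 after resection and 8.50 to 9.07 in mock glands, and their part in the procollagen result was not tested.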

How the data were processed

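RNA of 9 glands was measured on Clariom S arrays. The deposited values are log2 RMA values made by the authors with Transcriptome Analysis Console 4.0, per the labels; RMA subtracts background, brings arrays to 1 distribution and summarises probes. The genome build is not given in the sources used here. Values reach 19.93, above the 16 bits of a usual scanner, so the upper scale appears stretched and a log2 difference is not a calibrated fold change; 9 members average above 16, and the highest value of any member was 18.57.

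The 6640 control rows were left out and 22206 transcript clusters were tested, with symbols taken through Entrez IDs from RefSeq GRCm38.p6. Limma 3.58.1 (R 4.3.3) fitted all 9 arrays with a mean per group and moderated variances (6 residual and 6.63 prior degrees of freedom). Tests were two-sided, with Benjamini-Hochberg adjustment over all clusters and a threshold of 0.05. Array medians ran from 5.09 to 5.24, and arrays of a group correlated at 0.985 to 0.990 across clusters; 3 arrays per group limit the precision. The fit was tested on simulated data.

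The members and gene lists were chosen with earlier results of these data known. Named members were all past the threshold, the 3 with the largest difference in each comparison and a panel of stress and chaperone genes, to which values of further members were added after they were seen. Partner genes came from lists of pathway genes, by calls and size; Xbp1 was added after its values were seen. Alternatives were quantile normalisation, median centring, a filter on the dimmest 30%, a replicate block, robust variances, array weights, a fit of only the groups compared, a fold and unadjusted p rule, all clusters of a member, and leaving out each array.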

Additional observations from a re-analysis of the deposited data

Results flagged for a closer look

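These partner genes of the pathway stood out because the difference between day 14 and day 3 after resection itself passed the threshold (limma), so their distance from mock was not the same on the 2 days. Nupr1, a stress-induced nuclear protein, was higher on day 14 than on day 3 by 2.28 on the log2 scale, and Bhlha15, a transcription factor of secretory cells, by 1.38. Plod2, Serpinh1 and P4ha1, which serve collagen folding and modification, were lower on day 14 than on day 3 by -2.06, -2.01 and -1.85. P4ha2 also passed there, with a smaller difference of -1.24 (limma adjusted p = 0.0171). The calls of Bhlha15, Plod2, P4ha1 and P4ha2 were lost without certain single arrays, as given above. None of the 58 secretory pathway genes passed in that comparison.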

How the results depend on the processing

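On day 3 against mock 3 secretory pathway genes passed the threshold. The count was 1 when only the groups compared were fitted and 0 to 3 when 1 array was left out: 0 without day 3 resected replicate 1 or 3, and 1 without day 3 resected replicate 2 or mock replicate 2 or 3. On day 14 against mock it was 0 in every setting run. Between day 14 and day 3 after resection it was 0, but 1 (Sec16a) under quantile normalisation, array weights or a fit of only the groups compared, and 0 to 1 with 1 array left out. The median difference of the members between the resected groups, 0.11, was 0.22 after quantile normalisation and 0.16 after median centring. On day 3 against mock the median, -0.19, became -0.29 and -0.26 in those settings. On day 14 against mock, -0.22 became -0.17 and -0.24. Centring moved the median of all clusters to -0.14 on day 3 against mock and to 0.12 between the resected groups. Among single genes on day 3 against mock, Sec16a passed after quantile normalisation (adjusted p = 0.042), and calls were lost for Sec16b after centring (0.0502) and for Sec16b and Herpud1 in the fit of only the groups compared (0.0759 and 0.0507). That fit also ended the day 3 calls of Bhlha15 (0.0697) and Ero1b (0.0836), and quantile normalisation that of Plod2 between the resected groups (-1.93, 0.052). The smaller fits use fewer arrays, and the cause of these shifts was not tested.

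No pairing of arrays by replicate number was seen. Deviations of same-numbered arrays from their group means correlated at -0.087 to 0.051. An array's best match in another group had its own number in 2 of 18 cases. With 3 arrays per group a pairing is not excluded. With the replicate block the counts were 2 on day 3 against mock (Herpud1 at adjusted p = 0.0556), 0 on day 14 against mock and 1 between the resected groups.

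Small differences that did not pass changed sign in some settings. For Creld2 on day 3 against mock the value was -0.02 after quantile normalisation and 0.00 after centring, for Ddit3 -0.12 and -0.07, and for Sec24d on day 14 0.00 after centring. With 1 array left out, differences from mock on day 3 ran from -0.08 to 0.05 for Hsp90b1, -0.21 to 0.05 for Calr, -0.19 to 0.00 for Pdia6, -0.01 to 0.19 for Creld2, -0.31 to 0.42 for Ddit3, -0.30 to 0.24 for Atf6, -0.08 to 0.01 for Ern1, -0.61 to 0.16 for Eif2ak3 and -0.55 to 0.17 for Sec24d. On day 14 they ran from -0.06 to 0.32 for Sdf2l1, -0.37 to 0.57 for Dnajb9, -0.18 to 0.36 for Atf4 and -0.36 to 0.37 for Sec24d. For Sec61b between the resected groups the range was -0.22 to 0.30.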

Other observations

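The longer ER stress response element was also found in the promoter windows of 21 measured genes outside the member list. Of these, 2 were lower on day 3 than in mock glands, as were 1.36% of all clusters. Between the resected groups 1 of the 21 passed in either direction, beside 6.28% of all clusters, and it was higher on day 14. Esp18, a secreted exocrine gland peptide, was lower on day 3 by -1.95 ± 0.43 (limma adjusted p = 0.0156) and higher on day 14 than on day 3 by 2.13 ± 0.43 (0.00883), and Ero1b was lower on day 3 by -0.88 ± 0.23 (0.0386). Derl3, part of the ER retrotranslocation machinery, stood at -0.78 on day 3 and did not pass (limma adjusted p = 0.149). These genes were named after their values were seen.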
